A study of Papio anubis with 28 samples.

Results

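The within-animal change of a bladder graft was compared between 2 kinds of graft in baboons (Papio anubis). For each animal the change was the graft's level minus that of native bladder from the same animal, and the change in 9 animals that had received a bone marrow cell-seeded scaffold was set against the change in 5 animals augmented with a segment of ileum. All 28 libraries of the series entered, 1 graft and 1 native library for each of 14 animals. The scaffold arm pooled 5 SIS animals and 4 PRS animals, whose grafts are labelled as regenerated tissue and whose seeded cells are labelled MSC/CD34+ HSPC from primary bone marrow. The ileum arm held 5 Entero animals (enterocystoplasty, the surgical enlargement of the bladder with bowel), with an ileum graft and no seeded cells. Every library is labelled urinary bladder and WT. The animals' codes in the labels hold an F or an M, which is not expanded: F for SIS 1 to 3, PRS 1 and 2 and Entero 1 to 3, and M for SIS 4 and 5, PRS 3 and 4 and Entero 4 and 5. SIS and PRS are not expanded in the labels, which state neither age nor the time after surgery, and ungrafted ileum is not among the samples. No native bladder came from an animal without a graft, so each native sample shared its animal with a graft. The 2 scaffolds were not compared with an unseeded one, so scaffold and cells cannot be told apart.

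The bladder is lined by urothelium, whose surface umbrella cells carry plaques of uroplakins and whose basal cells depend on the transcription factor TP63. The ileum is lined by absorptive, mucus-secreting, Paneth and hormone cells under the control of CDX and HNF factors, and its last part recovers bile acids. HOX genes keep a record of position along the body, with the high-numbered paralogues marking the most caudal organs, the bladder among them.

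Counts per library were between 20975648 and 35669026. Gene counts were tested with edgeR's quasi-likelihood test with 1 term per animal, and p-values were adjusted by the Benjamini-Hochberg method over all 17177 genes tested. A difference is given as log2 of the scaffold change minus the ileum change, so it is positive where the graft gained more, or lost less, relative to native bladder in scaffold animals than in ileum animals. Levels are CPM, counts scaled to the size of the library, and the change of a single animal is the difference of log2(CPM + 0.5). CPM values are not corrected for gene length and are compared within a gene.

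The grafts of scaffold animals lay nearer to native bladder than did ileum grafts. The distance between a graft and the native bladder of its animal, 1 minus Pearson's r of log2(CPM + 1) over the genes tested, was 0.0769 ± 0.0472 for scaffolds (SD, n = 9) and 0.192 ± 0.0254 for ileum (SD, n = 5). It was between 0.0195 and 0.15 in scaffold animals and 0.206, 0.159, 0.215, 0.172 and 0.21 in ileum animals, so the groups did not overlap. The difference of the means was -0.115 (two-sided exact permutation test over animals, p = 0.000999, against a smallest possible p of 0.0005). Single scaffold animals varied widely. The share of genes more than 4-fold apart between graft and native bladder was 0.448%, 10.7%, 0.821%, 13.7% and 10.5% in SIS animals and 2.32%, 14.6%, 6.14% and 2.19% in PRS animals, and it was 16.2%, 10.7%, 19.7%, 14.8% and 16.1% in ileum animals. On this measure SIS 2, SIS 4, SIS 5 and PRS 2 reached values within or close to those of the ileum animals, although the genes concerned need not be the same.

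**Figure D1:**
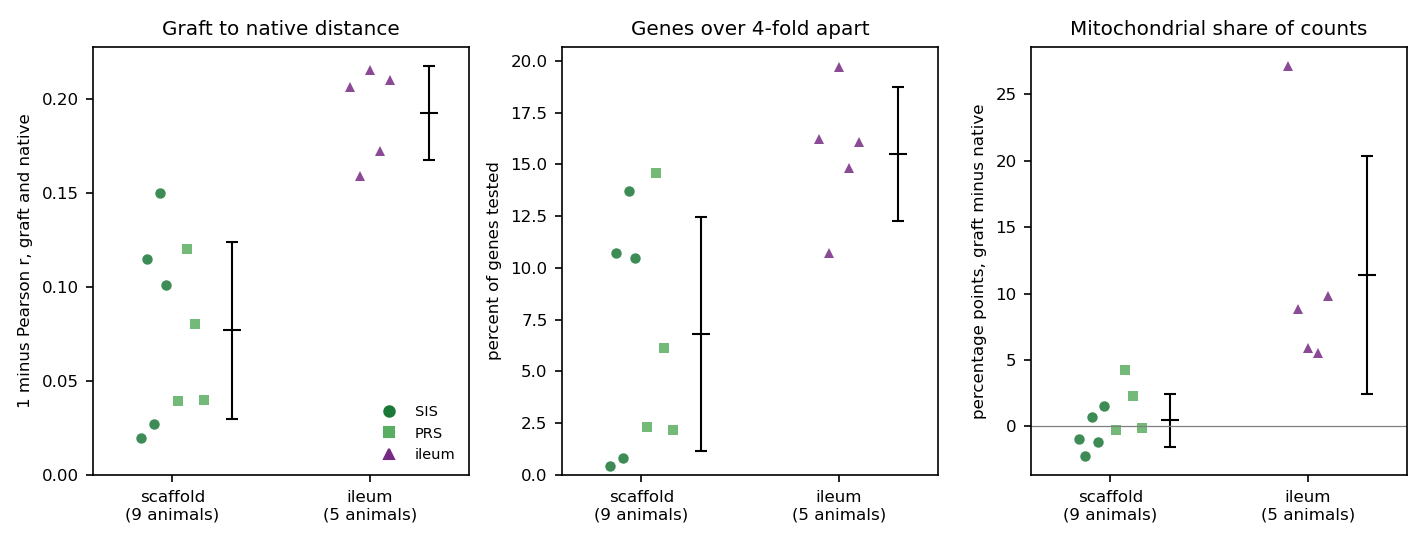
Measures of graft against native bladder in each animal: distance (1 minus Pearson's r), the percentage of genes tested that were over 4-fold apart, and the graft minus native change of the mitochondrial share of counts in percentage points. Points are animals, with scaffold animals on the left (SIS circles, PRS squares) and ileum animals on the right (triangles), and bars are mean ± SD. The distances do not overlap, with a highest scaffold value of 0.15 and a lowest ileum value of 0.159.

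The change differed between scaffold and ileum animals for 937 genes, 5.45% of those tested, of which 481 (2.8%) were higher and 456 (2.65%) lower in the scaffold change. In the same fit, ileum grafts differed from native bladder for 2288 genes (13.3%) and scaffold grafts for 1 gene (0.00582%), which was TCN1, with 631 genes (3.67%) at an unadjusted p under 0.05. DESeq2 called 77 genes in the scaffold grafts, 72 of them higher. The interval of the scaffold change lay within 4-fold in both directions for 72.5% of genes and within 2-fold for 47.9%. For genes outside these shares, changes beyond the bound were not excluded. For genes inside them, smaller changes were not excluded. Among the 481 genes with a higher scaffold change, the median mean level was 36.7 CPM in scaffold grafts, 34.2 CPM in their native bladders, 5.02 CPM in ileum grafts and 35.7 CPM in their native bladders. Among the 456 genes with a lower scaffold change, these medians were 11.8, 10.6, 111 and 11 CPM in the same order. The median scaffold change of the 2 sets was 0.1 and -0.04 (log2), and the median ileum change -2.85 and 2.96. The single-animal changes of 9 scaffold and 5 ileum animals did not overlap for 183 and 282 genes of these sets, which were called on the same changes, and for 1.3% and 2.65% of all genes in the same directions. Over all genes, 19.5% had an unadjusted p under 0.05 for the difference, DESeq2 called 14.3% (7.98% higher, 6.33% lower) and limma-voom 7.44% (2.82% higher, 4.62% lower), and counts in the gene groups below are to be read against these shares. Over all genes the median difference was 0.2, and with DESeq2's size factors in place of TMM 0.14, so differences of that size carry no direction of their own.

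**Figure D2:**
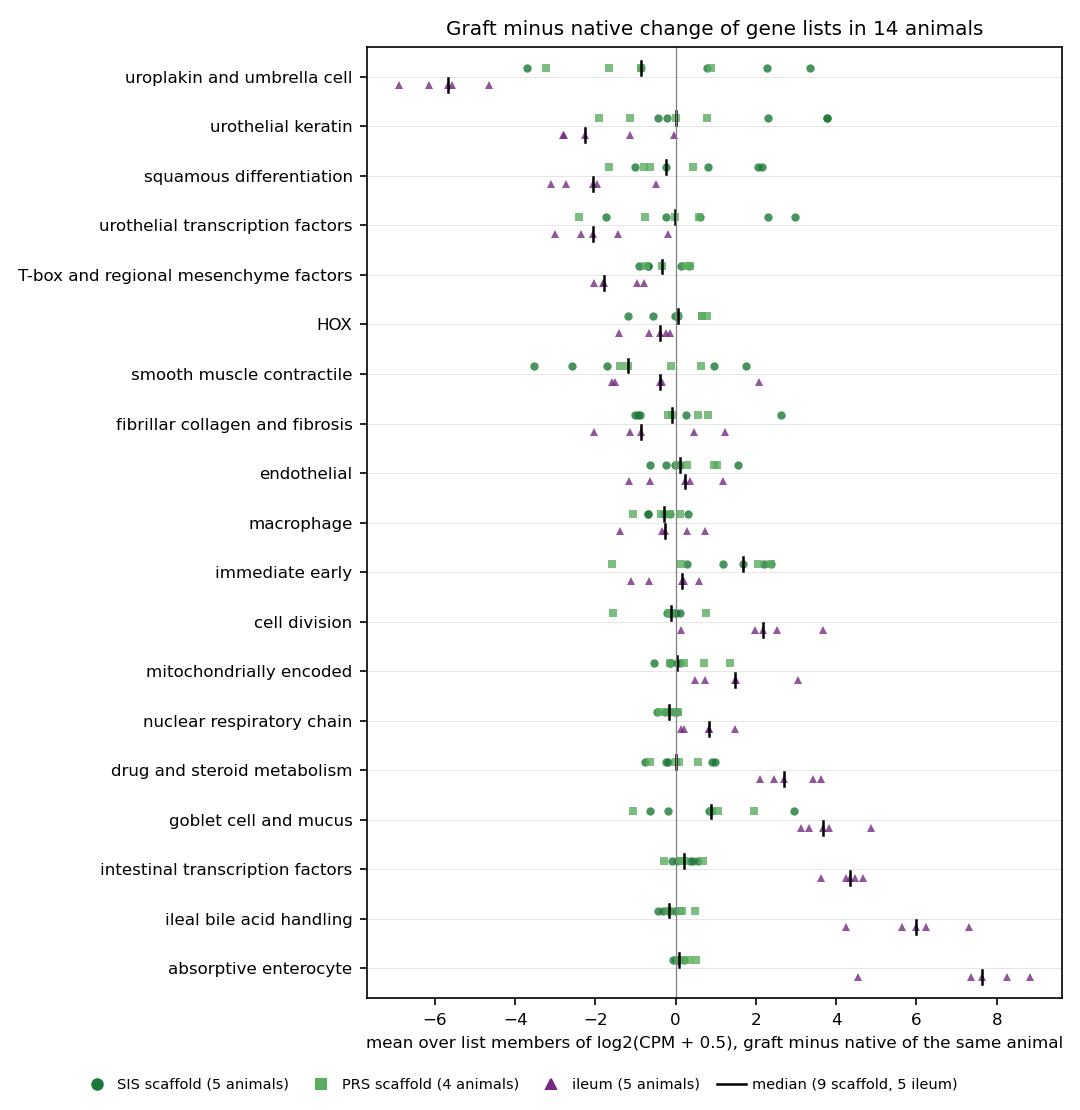
Mean graft minus native change, log2(CPM + 0.5), over the tested members of 19 gene lists. Each point is 1 animal, with the 9 scaffold animals above and the 5 ileum animals below in each row, and black ticks are medians. The ileum animals lie at or above 4.54 for absorptive enterocyte genes and at or below -4.66 for uroplakin genes, while scaffold animals lie between -0.07 and 0.51 and between -3.7 and 3.36.

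Urothelial genes fell in ileum grafts and did not pass in scaffold grafts. Of 13 tested genes of umbrella cells, 11 passed with a higher scaffold change and 0 with a lower one, against backgrounds of 2.8% and 2.65% of all genes, and the median difference was 7.18 against 0.2 over all genes. In ileum grafts 11 of the 13 fell against native bladder (background 6.87%), and in scaffold grafts 0 passed, where 1 of all genes did. The exceptions were RAB27B, a GTPase of vesicle transport, at 2.93 (adjusted p = 0.198) and the cytochrome CYP4B1 at -1.91 (adjusted p = 0.59). UPK2, an integral plaque protein, had between 10.1 and 957 CPM in the 9 scaffold grafts (median 155) and between 28 and 902 CPM in their native bladders (median 552). It had 0, 1.15, 1.02, 0 and 4.19 CPM in the 5 ileum grafts and 340, 414, 1098, 71.8 and 514 CPM in the native bladders of those animals. Every ileum graft was below every other library of the series for this gene, while scaffold grafts and native bladders covered the same range. The difference was 8.43 ± 1.54 (log2, SE, adjusted p = 0.00462), and the single-animal changes ran from -4.67 to 2.44 in the 9 scaffold animals and from -9.5 to -6.78 in the 5 ileum animals. For its partner UPK1A, a tetraspanin, the difference was 7.83 ± 1.49 (log2, SE, adjusted p = 0.00619), and for UPK3A, the uroplakin whose loss causes reflux in mice, 8.03 ± 1.47 (log2, SE, adjusted p = 0.00483). UPK3A had a median of 1136 CPM in scaffold grafts and 650 CPM in their native bladders. By limma-voom 6 of the 13 passed rather than 11, with UPK2 at an adjusted p of 0.0572. In bulk tissue, fewer cells of a type and less RNA per cell cannot be told apart, here and for every group below.

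Genes of the urothelial surface were among those with the largest positive differences and separate groups. TMEM40, a transmembrane protein, had between 3.95 and 57.6 CPM in the 9 scaffold grafts (median 16.6) and between 1.8 and 66.4 CPM in their native bladders (median 29.7). It had 0, 0, 0, 0 and 0.0499 CPM in the 5 ileum grafts and 41.7, 37.4, 92.6, 20.4 and 39.5 CPM in the native bladders of those animals. Its 5 ileum grafts together held 1 read, a graft to native ratio of 0.000159 (95% counting interval 4.02e-06 to 0.000885), and the adjusted p of the difference was 0.000834. PSCA, a surface antigen first described in prostate, reached 7958 CPM in scaffold grafts and had a difference of 9.26 ± 1.77 (log2, SE, adjusted p = 0.00645). In scaffold animals the changes of PSCA ran from -4.93 to 4.07, so the separation from ileum came with a wide spread among scaffolds. GJB5, a connexin of gap junctions in stratified epithelia, had 0 reads in the 5 ileum grafts and was at least 143-fold lower there than in native bladder (3 counts over the group as the floor), with an adjusted p of 0.00772 for the difference. HOXA11-AS1_5, of the same set, is annotated antisense to HOXA11 and shares its locus; no source used here gives the strand setting of the counting, so the pair cannot be told apart.

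Of 15 urothelial transcription factors 5 passed, each with a higher scaffold change (33.3%, against 2.8% of all genes), and the median difference was 1.56. TP63, the master regulator of basal cells in stratified epithelia, had between 5.33 and 85.9 CPM in the 9 scaffold grafts (median 29) and between 2.46 and 78 CPM in their native bladders (median 53.3). It had 0, 0.1, 0, 0.0475 and 0 CPM in the 5 ileum grafts and 49.2, 34.3, 31.3, 0.576 and 74.2 CPM in the native bladders of those animals. The ileum grafts held 3 reads in all, a graft to native ratio of 0.000573 (95% counting interval 0.000118 to 0.00168). Each of these grafts was below every other library. The native bladder of Entero 4 was itself low, so the changes of the 2 groups overlapped (adjusted p of the difference 0.00396). RARG, a retinoic acid receptor, differed by 2.85 ± 0.53 (log2, SE, adjusted p = 0.00579) with no overlap between groups. GATA3, a luminal factor, differed by 4.31 (adjusted p = 0.0389) and TBX2, a T-box repressor, by 2.4 (adjusted p = 0.0224). PPARG, a driver of luminal differentiation, did not pass, at 1.61 ± 0.86 (log2, SE, adjusted p = 0.323). The epithelial factors KLF5 and ELF3, which bowel also expresses, were at -0.03 (adjusted p = 0.993) and 1.13 ± 1.09 (log2, SE, adjusted p = 0.623). KLF5 stood at a mean of 363 CPM in ileum grafts and 219 CPM in their native bladders. The calls of GATA3 (8 of 14 animals, adjusted p up to 0.125) and TBX2 (2 of 14 animals, adjusted p up to 0.0803) were lost when single animals were left out.

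Among 7 tested keratins of urothelium, 3 passed higher and 1 lower (57.1%, against 5.45% of all genes). KRT7, a simple epithelial keratin of all urothelial layers, differed by 5.86 ± 1.26 (log2, SE, adjusted p = 0.0119), with mean levels of 769 CPM in scaffold grafts, 717 in their native bladders, 19.3 in ileum grafts and 868 in theirs. KRT15, a basal keratin, differed by 6.85 (adjusted p = 0.0412) and KRT4, a keratin of wet stratified epithelia, by 8.02 (adjusted p = 0.0233). KRT20 went the other way. This keratin belongs to umbrella cells and to intestinal epithelium alike, and it had 1488, 1703, 760, 479 and 2338 CPM in the 5 ileum grafts and 5.46, 6.62, 11.4, 4.11 and 11.2 CPM in the native bladders of those animals. In scaffold animals it had between 0 and 10.1 CPM in the 9 scaffold grafts (median 3.71) and between 0.0427 and 11.8 CPM in their native bladders (median 3.56), and the difference was -7.38 ± 1.34 (log2, SE, adjusted p = 0.00454) with no overlap. Of 13 genes of squamous differentiation 4 passed, all higher (30.8%, against 2.8%). KRT6A, a keratin of stratified and wounded epithelium, differed by 8.44 ± 1.66 (log2, SE, adjusted p = 0.00732) and SPRR1B, a cornified envelope precursor, by 7.42 ± 1.51 (log2, SE, adjusted p = 0.00882). PKP1, a desmosome plaque protein, differed by 7.9 (adjusted p = 0.0121), and TMPRSS11E, a serine protease, had 0 reads in the ileum grafts and was at least 1420-fold lower there than in native bladder (adjusted p of the difference 0.00853). With genes of 3 or fewer reads in a group set to that floor, the median difference of the squamous list was 3.57 rather than 5.58. The calls of KRT15 (10 of 14 animals, adjusted p up to 0.075) and KRT4 (4 of 14 animals, adjusted p up to 0.0753) were lost when single animals were left out, and that of PKP1 without Entero 5 (adjusted p = 0.0531). By limma-voom, KRT15, KRT4 and PKP1 had adjusted p-values of 0.0619, 0.21 and 0.084.

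Of 32 genes of WNT, hedgehog and BMP signalling 2 passed, the ligands SHH and WNT7B. That is 6.25%, near the 5.45% of all genes. SHH, the hedgehog ligand through which urothelium signals to the underlying stroma, had between 1.48 and 52.1 CPM in the 9 scaffold grafts (median 42) and between 1.92 and 41 CPM in their native bladders (median 29.1). It had 0, 0.301, 0, 0 and 0 CPM in the 5 ileum grafts and 48.9, 26.3, 48.9, 1.11 and 25.4 CPM in the native bladders of those animals. Each ileum graft was below every other library, and the difference was 9.6 ± 1.57 (log2, SE, adjusted p = 0.00216). WNT7B, a WNT ligand, differed by 9.27 ± 1.6 (log2, SE, adjusted p = 0.00307), and its changes ran from -3.77 to 3.84 in the 9 scaffold animals and from -8.07 to -3.86 in the 5 ileum animals. The median of the list was 0.81. TRPV4, a stretch- and osmolarity-gated channel of urothelium, was the only one of 20 receptors and channels of contraction to pass, at 4.93 ± 1.29 (log2, SE, adjusted p = 0.0342), and its call was lost when any of 8 animals was left out (adjusted p up to 0.0963) and by limma-voom (adjusted p = 0.0643). That is 5% of the list, against 5.45% of all genes, and DESeq2 called 3 of the 20, all higher.

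**Figure D3:**
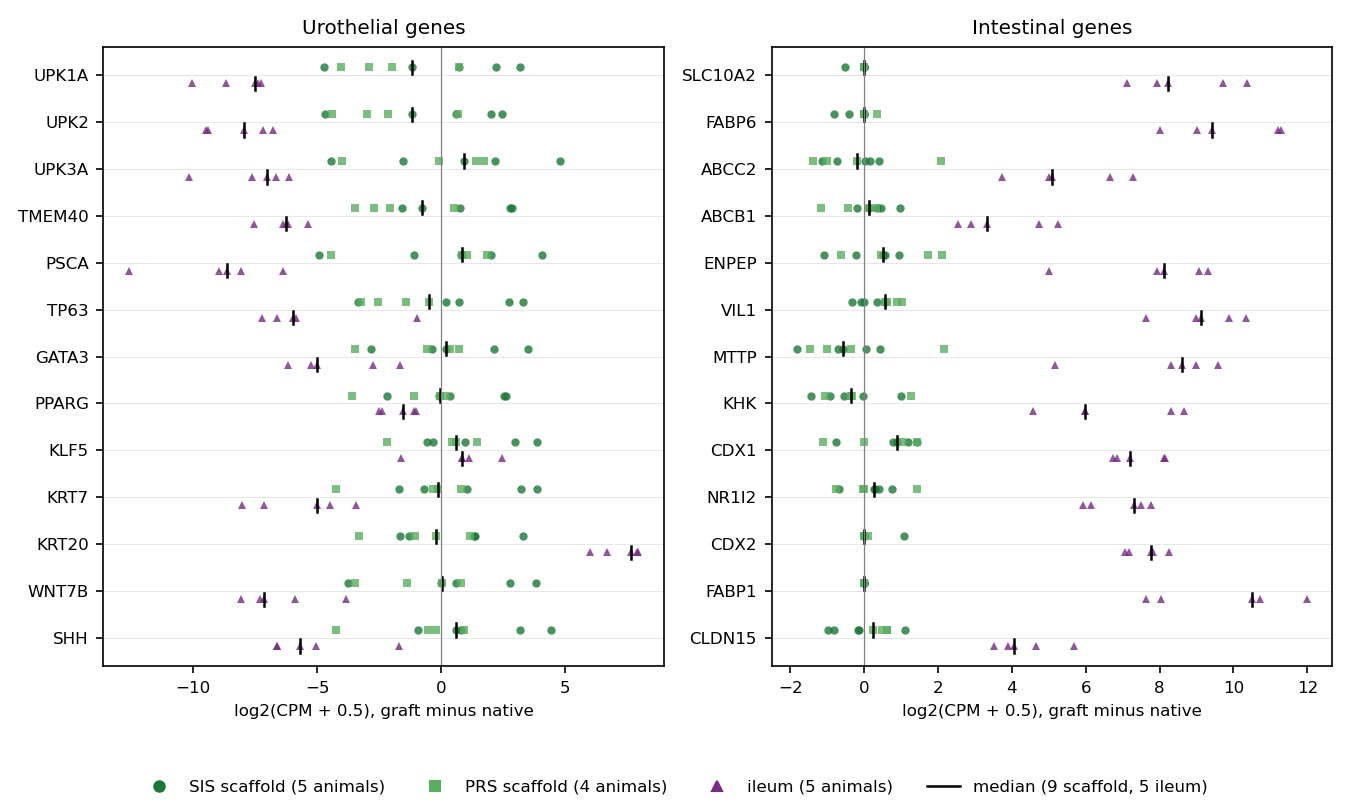
Graft minus native change, log2(CPM + 0.5), of 13 urothelial genes on the left and 13 intestinal genes on the right. In each row the 9 scaffold animals are drawn above (SIS circles, PRS squares) and the 5 ileum animals below (triangles), with ticks at the medians. For UPK2 the scaffold animals lie between -4.67 and 2.44 and the ileum animals between -9.5 and -6.78. For VIL1 the ranges are -0.32 to 1.03 and 7.63 to 10.33.

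Genes of the absorptive intestinal cell rose in ileum grafts and did not pass in scaffold grafts, where 1 of all genes did. Of 28 tested genes of the absorptive enterocyte 18 passed with a lower scaffold change and 0 with a higher one (background 2.65% and 2.8%), and 27 of the 28 rose in ileum grafts against native bladder (background 6.45%). The mean change over the list ran from -0.07 to 0.51 in the 9 scaffold animals and from 4.54 to 8.84 in the 5 ileum animals. VIL1, which bundles actin in microvilli, had between 0 and 0.519 CPM in the 9 scaffold grafts (median 0.233) and between 0 and 0.2 CPM in their native bladders (median 0). It had 838, 471, 703, 152 and 1393 CPM in the 5 ileum grafts and 0.397, 0.436, 0.754, 0.269 and 0.58 CPM in the native bladders of those animals. The 2 groups of changes did not overlap, and the difference was -7.92 ± 1.42 (log2, SE, adjusted p = 0.00471). MYO1A, the brush border myosin, differed by -9.19 ± 1.05 (log2, SE, adjusted p = 0.000177), ENPEP, a brush border aminopeptidase, by -7.69 ± 0.83 (log2, SE, adjusted p = 0.000145), and ANPEP, another, by -7.44 ± 0.99 (log2, SE, adjusted p = 0.000621). MTTP, which loads lipid onto chylomicrons, differed by -10.83 ± 1.71 (log2, SE, adjusted p = 0.00184). ENPEP and ANPEP were not silent in bladder, with medians of 7.85 and 4.76 CPM in scaffold grafts.

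The list of bile acid handling, a task of the end of the small bowel, had the highest share of calls among the 41 lists. It also holds the export pumps ABCC2 and ABCB1 and the sterol exporter ABCG8. Of 10 tested 9 passed with a lower scaffold change (90%, against 2.65% of all genes). DESeq2 called 8 lower (background 6.33%) and limma-voom 10 (background 4.62%). The list's change ran from -0.45 to 0.48 in the 9 scaffold animals and from 4.25 to 7.3 in the 5 ileum animals. The transporters ABCC2 and ABCB1, both export pumps that bladder also expresses, differed by -6.3 ± 1.03 (log2, SE, adjusted p = 0.00216) and -3.69 ± 0.48 (log2, SE, adjusted p = 0.000582). ABCB1 had between 13.1 and 34.8 CPM in the 9 scaffold grafts (median 22.6) and between 10.4 and 51.9 CPM in their native bladders (median 21). It had 982, 440, 308, 154 and 1182 CPM in the 5 ileum grafts and 36.1, 58.7, 30.4, 26 and 30.5 CPM in the native bladders of those animals. Each ileum graft was above every library of the scaffold arm. SLC51A, a subunit of the basolateral bile acid exporter, differed by -4.44 ± 0.69 (log2, SE, adjusted p = 0.00173), and its changes were 3.94, 4.47, 4.42, 3.89 and 5.9 in ileum animals.

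SLC10A2, the apical bile acid importer, had 0 reads in the scaffold grafts and 5 in their native bladders, and its 5 ileum grafts had 1002, 191, 409, 133 and 1852 CPM against 0.687, 0.291, 0.872, 0.461 and 0.889 CPM in native bladder. FABP6, the ileal bile acid binding protein, had 4 reads in scaffold grafts and 13 in their native bladders, and 1894, 1146, 5689, 927 and 17772 CPM in ileum grafts against 3.18, 1.19, 1.78, 3.07 and 6.96 CPM in native bladder. The adjusted p of the difference was 0.00593 for SLC10A2 and 0.00921 for FABP6, and 1 for both without the animal term. Such genes make up most of those with the largest negative fitted differences and separate groups. Those described here are HAPLN4, a link protein of hyaluronan matrix, SLC25A48, a mitochondrial carrier, ABCG8, a sterol exporter, SLC10A2, SLC2A2, the basolateral glucose transporter GLUT2, HKDC1, a hexokinase-like enzyme, and FABP6. Their fitted differences are between -13.24 and -11.45 and rest on 0 to 13 reads over 9 scaffold grafts, so these sizes depend on the prior count of the fit and are not bounds. The changes of single animals lay between -1.59 and 0.35 in scaffold animals and between 2.42 and 11.28 in ileum animals over these 7 genes. Their sizes depend on the 0.5 added to each CPM, and with 0 reads in both libraries a change is 0 by construction. Without SIS 5 the adjusted p of SLC10A2 was 1, FABP6 reached 0.0541 without SIS 3 or SIS 5, HKDC1 0.996 without PRS 4, and ABCG8 1 without Entero 5 or SIS 3. HAPLN4 lost its call without any of 6 animals (adjusted p up to 0.114).

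Genes without reads in the scaffold arm cannot pass this test, because a change within those animals is then undefined. Over all genes, 121 of those tested had at most 3 reads in the scaffold grafts or in their native bladders. Of these the test called 8, and limma-voom, which works on log values, called 76 of the others, all lower. FABP1, the liver-type fatty acid binding protein of enterocytes, is an example, with 0 reads in all 18 scaffold libraries and 427, 1638, 1122, 815 and 4687 CPM in the ileum grafts against 1.12, 0.465, 0.278, 3.61 and 0.657 CPM in native bladder. Its adjusted p was 1 by edgeR and 1.41e-05 by limma-voom. CDX2, the homeobox factor that specifies intestine, had 13 reads in the scaffold grafts and 0 in their native bladders. It had 164, 138, 130, 82.3 and 183 CPM in the 5 ileum grafts and 0.0361, 0.465, 0.0793, 0.115 and 0.348 CPM in the native bladders of those animals. Its adjusted p was 0.937 by edgeR, 0.0333 by DESeq2 and 3.85e-05 by limma-voom, and the highest scaffold graft, at 0.561 CPM, was below the lowest ileum graft. HNF4A, a nuclear receptor of enterocytes, had adjusted p-values of 0.532 by edgeR and 0.000725 by limma-voom.

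Of 18 intestinal transcription factors 8 passed with a lower scaffold change (44.4%, against 2.65% of all genes) and 0 with a higher one, and 13 rose in ileum grafts (background 6.45%). CDX1, the paralogue of CDX2, had between 0 and 1.97 CPM in the 9 scaffold grafts (median 0.843) and between 0 and 4.87 CPM in their native bladders (median 0.164). It had 221, 314, 174, 173 and 374 CPM in the 5 ileum grafts and 1.59, 1.63, 0.119, 0.999 and 0.851 CPM in the native bladders of those animals. The difference was -6.57 ± 1.22 (log2, SE, adjusted p = 0.00613), with no overlap. NR1I2, the xenobiotic receptor PXR, differed by -7.85 ± 1.31 (log2, SE, adjusted p = 0.0029).

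Native bladders of the ileum animals held low levels of intestinal transcripts. Set against each other without the animal term, native bladders of scaffold and ileum animals differed for 9 genes, 0.0524% of those tested, all lower in scaffold animals, with 349 genes (2.03%) at an unadjusted p under 0.05. They included SI, FABP2, FABP6, SLC6A19, REG1A, FABP1, GUCA2B and MEP1A. FABP6 averaged 0.0604 CPM in native bladders of scaffold animals and 3.24 CPM in those of ileum animals (adjusted p = 0.0193), against 5486 CPM in ileum grafts. For SI, sucrase-isomaltase, these levels were 0.00474, 1.71 and 1933 CPM (adjusted p = 0.0039). The part of these transcripts in the ileum change was not tested.

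Genes of the other intestinal cell types were counted in the same way. Of 13 genes of goblet cells and mucus 2 passed, both lower (15.4%, against 2.65% of all genes), and 8 rose in ileum grafts against native bladder (background 6.45%). KLK1, tissue kallikrein, differed by -3.48 ± 0.87 (log2, SE, adjusted p = 0.0278), and GALNT8, a glycosyltransferase, had 3 reads in scaffold grafts and 34 in their native bladders (adjusted p = 0.0177). Of 12 Paneth and antimicrobial genes 2 passed, both lower (16.7%), and 7 rose in ileum grafts. NOS2, the inducible nitric oxide synthase, differed with an adjusted p of 0.0327 on 13 reads in scaffold grafts, and PLA2G2A, a secreted bactericidal phospholipase, by -3.08 ± 0.83 (log2, SE, adjusted p = 0.0412). PLA2G2A was present in every group, at a mean of 38.4 CPM in scaffold grafts, 69.7 in their native bladders, 427 in ileum grafts and 87.5 in theirs. DEFA6, a Paneth defensin, had 0 reads in the 18 scaffold libraries and 341, 637, 146, 1504 and 26.9 CPM in ileum grafts against 0.108, 0.523, 0, 0.5 and 0 CPM in native bladder. REG1A, a regenerating-islet lectin, averaged 5170 CPM in ileum grafts against 0 reads in scaffold grafts and 3 in their native bladders (adjusted p = 0.0568). Of 11 enteroendocrine genes 1 passed (9.09%), the granule protein CHGB at -4.59 ± 1.3 (log2, SE, adjusted p = 0.0495), and 7 rose in ileum grafts. The calls of KLK1 (5 of 14 animals, adjusted p up to 0.111), NOS2 (5 of 14 animals, adjusted p up to 0.451), PLA2G2A (7 of 14 animals, adjusted p up to 0.103), GALNT8 (2 of 14 animals, adjusted p up to 0.0855) and CHGB (10 of 14 animals, adjusted p up to 0.108) were lost when single animals were left out, and that of NOS2 without the animal term (adjusted p = 0.217).

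Of 15 crypt genes tested 1 passed higher and 1 lower (13.3%, against 5.45% of all genes), with a median difference of -0.67. CD44, the hyaluronan receptor of crypt bases and of basal urothelium, differed by 1.57 ± 0.4 (log2, SE, adjusted p = 0.0314), and RGMB, a BMP co-receptor, by -1.49 ± 0.36 (log2, SE, adjusted p = 0.0215). LGR5, the R-spondin receptor of crypt base stem cells, had between 0 and 6.01 CPM in the 9 scaffold grafts (median 2.85) and between 1.11 and 5.3 CPM in their native bladders (median 2.48). It had 8.05, 6.17, 0.0487, 4.71 and 3.29 CPM in the 5 ileum grafts and 1.45, 4.94, 2.58, 1.04 and 4.95 CPM in the native bladders of those animals. The ranges overlapped, although the ileum grafts at 8.05 and 6.17 CPM were above every other library. The difference was -0.55 ± 1.55 (log2, SE, adjusted p = 0.894). OLFM4, a secreted marker of human crypt stem cells, stood at -3.67 ± 1.91 (log2, SE, adjusted p = 0.311), with 176, 847, 60, 609 and 39.3 CPM in the 5 ileum grafts and 3.97, 24.1, 0, 0.615 and 0.503 CPM in the native bladders of those animals. Scaffold grafts themselves ran from 0 to 1150 CPM. The calls of CD44 (7 of 14 animals, adjusted p up to 0.0963) and RGMB (2 of 14 animals, adjusted p up to 0.0583) were lost when single animals were left out.

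The HOX genes that passed lay at the caudal ends of the A and D clusters and in the middle of the C cluster. Of 35 tested, 6 passed with a higher scaffold change and 2 with a lower one (22.9% in all, against 5.45% of all genes). HOXA13, the last gene of its cluster, had between 21.6 and 98.5 CPM in the 9 scaffold grafts (median 58.2) and between 37.1 and 118 CPM in their native bladders (median 98.4). It had 0, 0.451, 0, 0.0475 and 0.2 CPM in the 5 ileum grafts and 69.1, 59.5, 97.2, 125 and 104 CPM in the native bladders of those animals. The groups did not overlap, and the difference of 9.12 ± 0.85 (log2, SE, adjusted p = 6.07e-05) had the smallest p among the HOX genes. HOXA11, a neighbour of HOXA13 in the cluster, differed by 8.19 ± 1.21 (log2, SE, adjusted p = 0.00131), and HOXA10 by 4.24 ± 0.95 (log2, SE, adjusted p = 0.0149). HOXD13 and HOXD10 had 0 reads in the 5 ileum grafts and were at least 1343-fold and 93.1-fold lower there than in native bladder (adjusted p of the difference 0.00396 and 0.0024). In scaffold grafts HOXD13 had a median of 13.3 CPM against 37 CPM in their native bladders, and single-animal changes as low as -4.77 overlapped those of ileum. HOXD9 differed by 4.78 (adjusted p = 0.0178), with an adjusted p of 0.0723 without the animal term.

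The 2 HOX genes that passed with a lower scaffold change were HOXC8 and HOXC6, of the thoracic part of the code. HOXC8 had between 0.624 and 3.6 CPM in the 9 scaffold grafts (median 2.12) and between 0.593 and 1.99 CPM in their native bladders (median 1.17). It had 17.8, 12, 62.2, 41.2 and 53.7 CPM in the 5 ileum grafts and 0.434, 0.378, 0.952, 0 and 1.04 CPM in the native bladders of those animals. All 5 ileum grafts were above all other libraries, and the difference was -5.68 ± 0.82 (log2, SE, adjusted p = 0.00108). HOXC6 differed by -4.14 ± 0.92 (log2, SE, adjusted p = 0.0137), also with separate groups.

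**Figure D4:**
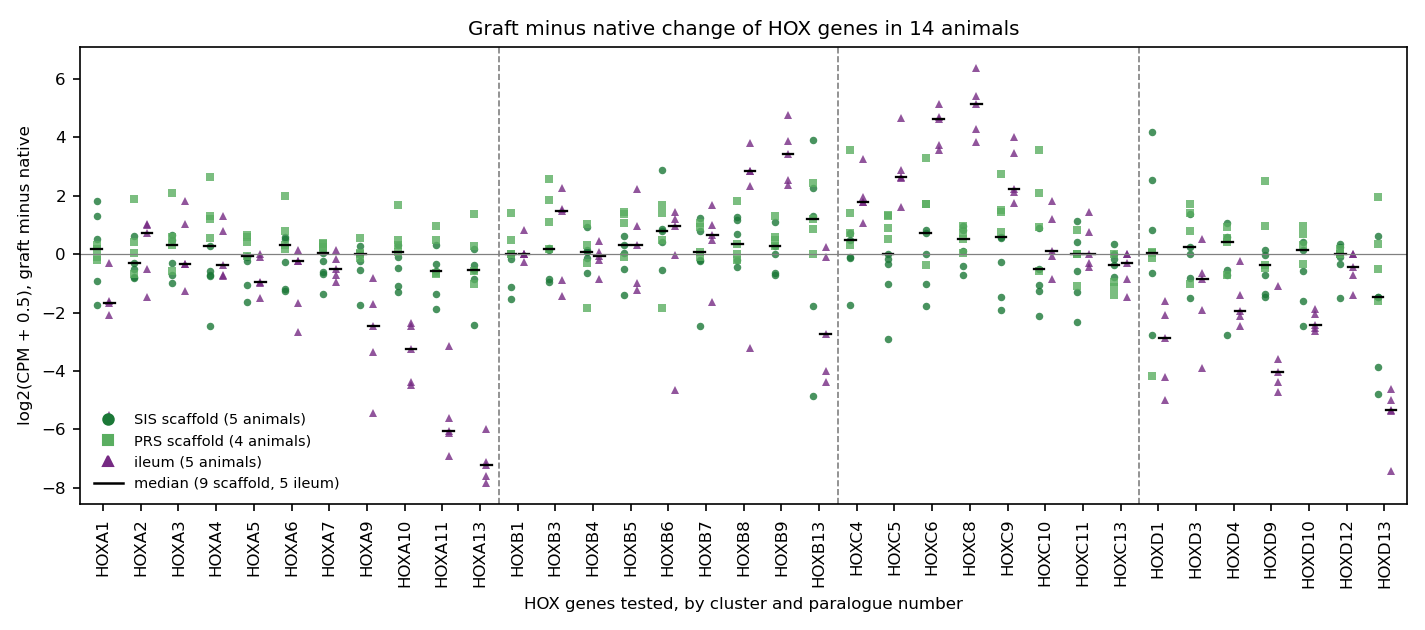
Graft minus native change, log2(CPM + 0.5), of the 35 HOX genes tested, ordered by cluster (dashed lines) and paralogue number. Each point is 1 animal, with the 9 scaffold animals to the left (SIS circles, PRS squares) and the 5 ileum animals to the right (triangles), and bars are medians. The ileum animals run from -7.84 to -5.98 at HOXA13 and from 3.83 to 6.38 at HOXC8, while the scaffold animals run from -2.42 to 1.39 and from -0.71 to 0.98.

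Among 25 T-box and regional mesenchyme factors 7 passed, all with a higher scaffold change (28%, against 2.8% of all genes), and the median difference was 2.46. NKX2-3, a homeobox gene of this list, went the other way without passing. Its changes ran from -0.57 to 1.67 in the 9 scaffold animals and from 4.06 to 6.59 in the 5 ileum animals. Limma-voom called 7 of the 25 higher and 1 lower. PITX1, a homeobox factor of the hindlimb and pelvic region, had between 19.3 and 339 CPM in the 9 scaffold grafts (median 107) and between 54.8 and 413 CPM in their native bladders (median 206). It had 3.32, 3.96, 0.876, 11.2 and 9.93 CPM in the 5 ileum grafts and 79.9, 87.7, 86.1, 267 and 175 CPM in the native bladders of those animals. The groups did not overlap, and the difference was 3.85 ± 0.61 (log2, SE, adjusted p = 0.00192). PRRX2 and PRRX1, paired-related factors of mesenchyme, differed by 2.98 ± 0.67 (log2, SE, adjusted p = 0.0145) and 4.49 (adjusted p = 0.0493), and EMX2, a factor of the urogenital tract, by 6.99 ± 1.66 (log2, SE, adjusted p = 0.0205). TBX5 and TBX4, which pattern limb buds and the anterior body wall, had 0 reads in the 5 ileum grafts and were at least 657-fold and 1028-fold lower there than in native bladder (adjusted p of the difference 0.0347 and 0.0391). TBX5 and TBX4 ranged down to 0 CPM in scaffold grafts, with medians of 3.8 and 3.57 CPM against 15.8 and 26.7 CPM in their native bladders, and single-animal changes overlapped those of ileum. The calls of TBX5 (9 of 14 animals, adjusted p up to 0.0818), TBX4 (10 of 14 animals, adjusted p up to 0.0829), PRRX1 (12 of 14 animals, adjusted p up to 0.139) and EMX2 (3 of 14 animals, adjusted p up to 0.0871) were lost when single animals were left out.

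The wall of the bladder consists of muscle, nerve and matrix. None of 16 tested smooth muscle contractile genes passed, with 0 at an unadjusted p under 0.05 and 0 by DESeq2 or limma-voom, and the median difference was -0.49. DES, the intermediate filament of muscle, had between 1524 and 31035 CPM in the 9 scaffold grafts (median 3728) and between 1144 and 33443 CPM in their native bladders (median 11155). It had 4267, 1044, 40245, 17962 and 14686 CPM in the 5 ileum grafts and 3726, 2837, 4437, 32653 and 6227 CPM in the native bladders of those animals. All 4 groups overlapped, and the difference was -1.11 ± 1.02 (log2, SE, adjusted p = 0.601). ACTG2, the actin of visceral muscle, stood at -1.37 ± 1.11 (log2, SE, adjusted p = 0.54). The spread was large: the list's mean change ran from -3.53 to 1.76 in the 9 scaffold animals and from -1.59 to 2.09 in the 5 ileum animals, so these values do not show that the 2 graft kinds carried the same amount of muscle RNA. Of the 15 neuronal, 11 glial, 8 interstitial cell and 25 collagen and fibrosis genes tested, 0 passed by edgeR, with 3, 0, 1 and 6 at an unadjusted p under 0.05. Over all genes 19.5% were under that value. DESeq2 called 2 neuronal genes lower and, among the collagen genes, 1 higher and 2 lower (backgrounds 7.98% higher and 6.33% lower). Limma-voom called 3 neuronal genes lower (background 4.62%) and 0 glial, interstitial cell or collagen genes. For 2 of these 3, the scaffold grafts or their native bladders held at most 3 reads. In ileum grafts 3 neuronal genes rose against native bladder (background 6.45%). COL1A1, a chain of the main fibrous collagen, stood at 1.75 ± 0.99 (log2, SE, adjusted p = 0.358), and its changes ran from -1.59 to 2.23 in the 9 scaffold animals and from -3.73 to 2.41 in the 5 ileum animals. Of 20 genes of elastic fibre and basement membrane 1 passed (5%, against 5.45% of all genes), with 7 at an unadjusted p under 0.05, 5 higher by DESeq2 and 2 higher by limma-voom, and 7 fell in ileum grafts against native bladder (background 6.87%). The 1 gene was the matrix glycoprotein FBLN1 at 2.28 ± 0.58 (log2, SE, adjusted p = 0.0308), and it lost its call without any of 5 animals (adjusted p up to 0.114). Of 13 endothelial genes 1 passed (7.69%), the junction protein ESAM at 1.79 ± 0.41 (log2, SE, adjusted p = 0.0156), and without Entero 5 it did not (adjusted p = 0.0602). PECAM1, the adhesion molecule of all endothelium, stood at 0.27 ± 0.6 (log2, SE, adjusted p = 0.86). Of 8 mesothelial genes 1 passed (12.5%), UPK3B at 5.67 ± 1.21 (log2, SE, adjusted p = 0.0115), a uroplakin made by urothelium as well, and it did not pass by limma-voom (adjusted p = 0.0584). None of 7 lymphatic endothelial and 11 adipocyte genes passed by edgeR, with 1 and 3 at an unadjusted p under 0.05. DESeq2 called 1 lymphatic gene higher, and 3 adipocyte genes higher and 1 lower.

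Markers of the seeded cell types passed at about the share of all genes, 7.14% in each list against 5.45%. Of 14 haematopoietic stem and progenitor genes 1 passed, GATA2, which bladder itself expresses and which differed by 4.08 ± 0.8 (log2, SE, adjusted p = 0.00703) with 3.02, 12.4, 22, 6.56 and 10.2 CPM in the 5 ileum grafts and 315, 119, 343, 78.5 and 340 CPM in the native bladders of those animals. In scaffold animals GATA2 had between 18.1 and 424 CPM in the 9 scaffold grafts (median 140) and between 38.4 and 444 CPM in their native bladders (median 177), and of the 4 groups the ileum grafts were the low one. CD34, the sort marker named in the labels and an endothelial gene too, stood at 1.29 ± 0.58 (log2, SE, adjusted p = 0.235), RUNX1, a factor of blood formation, at 2.17 ± 1.03 (log2, SE, adjusted p = 0.261), and PROM1, the antigen CD133, at -0.13 ± 1.49 (log2, SE, adjusted p = 0.98). PROM1 changes ran from -0.65 to 6.58 in the 9 scaffold animals and from 1.99 to 4.7 in the 5 ileum animals. Most were rises in both graft kinds, so the small difference does not mean an unchanged level, although the scaffold change did not pass. Of 14 mesenchymal stromal genes 1 passed, LEPR, the leptin receptor of marrow stroma, at 3.02 ± 0.64 (log2, SE, adjusted p = 0.0108), with no overlap between groups. LEPR had a median of 8.45 CPM in scaffold grafts and 4.72 CPM in their native bladders, and its scaffold change, 0.63, had an adjusted p of 1.

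Among immune cell lists, calls ran from none in lymphocyte lists to 33.3% in the neutrophil and mast cell list, against 5.45% of all genes. None of 16 T and natural killer cell genes and of 16 B and plasma cell genes passed by edgeR, with 0 and 2 at an unadjusted p under 0.05 and, by DESeq2, 0 and 1. CD3E, a chain of the T cell receptor complex, stood at 0.77 ± 0.76 (log2, SE, adjusted p = 0.63) and JCHAIN, the joining chain of secreted antibody, at -1.84 ± 1.38 (log2, SE, adjusted p = 0.51). Of 16 macrophage genes 1 passed (6.25%), the lysosomal protein CD68 at -1.64 ± 0.4 (log2, SE, adjusted p = 0.0229), which lost its call without Entero 4 or Entero 5 (adjusted p up to 0.0823) and without the animal term (adjusted p = 0.0618). Of 9 neutrophil and mast cell genes 3 passed, all higher. The list's mean change ran from -0.53 to 0.89 in the 9 scaffold animals and from -3.22 to -0.91 in the 5 ileum animals. Single-animal changes lay apart for 2 of the 9 genes, CLC and S100A9 (1.3% of all genes in this direction). Those of every other member overlapped, so the separate means do not describe the list as a class. CLC, the Charcot-Leyden crystal protein known from human eosinophils and basophils, had between 0 and 313 CPM in the 9 scaffold grafts (median 51.4) and between 0.039 and 641 CPM in their native bladders (median 44.7). It had 0, 0, 0, 0.0475 and 0.25 CPM in the 5 ileum grafts and 627, 12.7, 154, 3.42 and 181 CPM in the native bladders of those animals. The changes did not overlap, and the difference was 11.55 ± 1.42 (log2, SE, adjusted p = 0.000336). S100A9, a calcium-binding alarmin of neutrophils that stratified epithelia also make, differed by 6.92 ± 1.3 (log2, SE, adjusted p = 0.00568), and CPA3, a mast cell protease, by 2.54 (adjusted p = 0.0421), with its call lost without any of 10 animals (adjusted p up to 0.11).

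Among 16 cytokines and chemokines 1 passed higher, IL33, and 1 lower, CCL25 (12.5% in all). IL33, an alarmin stored in nuclei of barrier cells, had between 107 and 389 CPM in the 9 scaffold grafts (median 252) and between 83.2 and 300 CPM in their native bladders (median 183). It had 10.9, 37.9, 8.86, 11.4 and 4.44 CPM in the 5 ileum grafts and 309, 141, 240, 88.8 and 269 CPM in the native bladders of those animals. Its difference was 4.48 ± 0.63 (log2, SE, adjusted p = 0.000999). CCL25, the chemokine that draws lymphocytes to the small bowel, had between 2.68 and 14.4 CPM in the 9 scaffold grafts (median 9.88) and between 2.05 and 16.7 CPM in their native bladders (median 7.08). It had 507, 1031, 430, 374 and 543 CPM in the 5 ileum grafts and 17.6, 18.2, 39.5, 15.4 and 11.4 CPM in the native bladders of those animals. The difference was -4.8 ± 0.54 (log2, SE, adjusted p = 0.000154). Neither gene overlapped between groups. Of 15 interferon response genes 3 passed, all higher (20%, against 2.8% of all genes), with IFI44L at 2.31 ± 0.56 (log2, SE, adjusted p = 0.0225), OAS1 at 1.71 (adjusted p = 0.027) and OAS3 at 1.87 (adjusted p = 0.0406), the OAS proteins being sensors of viral RNA. All 3 calls were lost when single animals were left out, IFI44L without Entero 2 or Entero 5 (adjusted p up to 0.0624), OAS1 without any of 5 animals (up to 0.0704) and OAS3 without any of 8 (up to 0.128). None of 18 immediate early genes, such as EGR1 and NR4A1, passed by edgeR, with 7 under 0.05 before adjustment (background 19.5%) and 5 higher by DESeq2 (background 7.98%). EGR1 stood at 1.36 (adjusted p = 0.165) and NR4A1 at 2.14 (adjusted p = 0.169), and the list's mean change ran from -1.58 to 2.38 in the 9 scaffold animals and from -1.12 to 0.58 in the 5 ileum animals.

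Most cell division genes rose in ileum grafts, though hardly in Entero 2, and 0 passed in scaffold grafts, where 1 of all genes did. Of 17 tested 5 passed with a lower scaffold change (29.4%, against 2.65% of all genes) and 0 with a higher one. In ileum grafts 13 rose against native bladder (background 6.45%), and DESeq2 called 13 of the differences lower (background 6.33%). The list's mean change ran from -1.57 to 0.76 in the 9 scaffold animals. It was 1.98, 0.14, 2.18, 3.67 and 2.52 in ileum animals, so the groups overlapped. Single-animal changes were separate for 0 of the 17 genes (2.65% of all genes in this direction). RRM2, a subunit of the enzyme that makes deoxynucleotides, had between 1.88 and 19.6 CPM in the 9 scaffold grafts (median 4.07) and between 1.47 and 63.2 CPM in their native bladders (median 4.13). It had 42.4, 158, 42.4, 180 and 95.2 CPM in the 5 ileum grafts and 11.1, 51.7, 3.73, 7.19 and 10.3 CPM in the native bladders of those animals. Its difference was -2.94 ± 0.57 (log2, SE, adjusted p = 0.00695), and the adjusted p was 0.0973 without the animal term. CCNB1 and CCNB2, the mitotic cyclins, differed by -3.08 ± 0.64 (log2, SE, adjusted p = 0.00984) and -4.63 (adjusted p = 0.0378), TYMS, thymidylate synthase, by -1.98 (adjusted p = 0.0412), and MCM2, a helicase subunit of replication, by -1.58 (adjusted p = 0.0455). MKI67, the usual stain for cycling cells, stood at -3.77 ± 1.08 (log2, SE, adjusted p = 0.0518). The calls of CCNB2 (8 of 14 animals, adjusted p up to 0.109), TYMS (10 of 14 animals, adjusted p up to 0.146) and MCM2 (11 of 14 animals, adjusted p up to 0.116) were lost when single animals were left out, while those of RRM2 and CCNB1 held without each of the 14.

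Respiratory chain genes of both genomes rose in ileum grafts, 8 of 13 mitochondrially encoded and 5 of 11 nuclear ones (background 6.45%). In scaffold grafts 0 of them passed, and 1 of all 17177 genes did. The share of counts on mitochondrial genes changed by 0.459 ± 1.98 percentage points in scaffold grafts (SD, n = 9) and by 11.4 ± 8.95 in ileum grafts (SD, n = 5). In scaffold animals it ran from -2.19 to 4.23, and in ileum animals it was 27.1, 8.84, 5.88, 5.52 and 9.8, so the groups did not overlap (difference -11, two-sided exact permutation test over animals, p = 0.0005, the smallest this design allows). Of 13 mitochondrially encoded genes 3 passed, all lower in the scaffold change (23.1%, against 2.65% of all genes), with 8 at an unadjusted p under 0.05. ND3, a subunit of complex I, had between 760 and 1282 CPM in the 9 scaffold grafts (median 942) and between 750 and 1112 CPM in their native bladders (median 950). It had 5449, 2422, 4827, 2544 and 6515 CPM in the 5 ileum grafts and 1271, 622, 969, 1192 and 990 CPM in the native bladders of those animals. The difference was -2.02 ± 0.33 (log2, SE, adjusted p = 0.00208) with no overlap, and COX3 and COX2, subunits of complex IV, differed by -1.99 ± 0.44 (log2, SE, adjusted p = 0.0132) and -1.81 (adjusted p = 0.0311). Of 11 nuclear genes of the chain 4 passed, again lower (36.4%). UQCRC1, of complex III, differed by -1.56 ± 0.29 (log2, SE, adjusted p = 0.00484), COX5A, of complex IV, by -1.35 ± 0.27 (log2, SE, adjusted p = 0.00802), NDUFV1, of complex I, by -1.25 (adjusted p = 0.0429) and ATP5A1, of the ATP synthase, by -1.0 (adjusted p = 0.036). The calls of COX2 (8 of 14 animals, adjusted p up to 0.104), NDUFV1 (11 of 14 animals, adjusted p up to 0.141) and ATP5A1 (9 of 14 animals, adjusted p up to 0.105) were lost when single animals were left out. With mitochondrial genes left out of the library totals, 947 genes differed in all, and the median difference of all genes was 0.23 rather than 0.2.

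In the lists of hypoxia and glycolysis and of drug and steroid metabolism most genes did not pass, and most of those that did had a lower scaffold change. Of 16 genes of hypoxia and glycolysis 5 passed lower and 1 higher (37.5% in all, against 5.45% of all genes). KHK, ketohexokinase, the first enzyme of fructose use, had between 1.45 and 4.95 CPM in the 9 scaffold grafts (median 3.66) and between 1.23 and 10.8 CPM in their native bladders (median 4.07). It had 424, 336, 723, 99.9 and 1441 CPM in the 5 ileum grafts and 6.18, 4.88, 1.78, 3.69 and 3.05 CPM in the native bladders of those animals. Its difference of -7.17 ± 0.78 (log2, SE, adjusted p = 0.000146) had separate groups. Also lower were PCK1, the rate-limiting enzyme of gluconeogenesis, at -7.38 ± 1.82 (log2, SE, adjusted p = 0.0273), FBP1, fructose bisphosphatase, at -3.46 (adjusted p = 0.0363), and CA9, a membrane carbonic anhydrase, at -4.48 ± 1.03 (log2, SE, adjusted p = 0.0166). HK1, a hexokinase of most tissues, differed by 1.09 (adjusted p = 0.0459) the other way. The call of PCK1 was lost without any of 7 animals (adjusted p up to 0.0834) and that of CA9 without Entero 5 (adjusted p = 0.0637), and those of FBP1 (9 of 14 animals, adjusted p up to 0.102) and HK1 (12 of 14 animals, adjusted p up to 0.138) were lost likewise. Of 18 genes of drug and steroid metabolism 7 passed, all lower (38.9%, against 2.65%). CYP4F2 and CYP4F12, fatty acid hydroxylases, differed by -9.06 ± 1.67 (log2, SE, adjusted p = 0.00489) and -2.89 ± 0.55 (log2, SE, adjusted p = 0.00647), UGT2A3, a glucuronosyltransferase, by -7.66 ± 1.22 (log2, SE, adjusted p = 0.00254), and CES2, a carboxylesterase, by -3.68 ± 0.71 (log2, SE, adjusted p = 0.00681).

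Genes of ion and water transport went both ways, with 4 of 24 genes higher in the scaffold change and 6 lower (41.7% in all, against 5.45% of all genes). SLC14A1, the urea transporter of urothelium, had between 34.1 and 319 CPM in the 9 scaffold grafts (median 142) and between 38.9 and 280 CPM in their native bladders (median 150). It had 1.21, 2.71, 2.14, 0.951 and 0.349 CPM in the 5 ileum grafts and 207, 151, 244, 88.8 and 167 CPM in the native bladders of those animals. The groups did not overlap, and the difference was 6.83 ± 0.78 (log2, SE, adjusted p = 0.000185). Lower were SLC9A3, the sodium-hydrogen exchanger of the brush border, at -4.53 ± 0.64 (log2, SE, adjusted p = 0.00102), SLC26A3, the chloride-bicarbonate exchanger of bowel, at -8.62 ± 1.24 (log2, SE, adjusted p = 0.00131), and SLC26A6, a related exchanger, at -2.41 ± 0.37 (log2, SE, adjusted p = 0.00165). Of 17 tight junction genes 1 passed each way (11.8% in all). CLDN15, a claudin that forms sodium channels between enterocytes, had between 7.49 and 20.9 CPM in the 9 scaffold grafts (median 11.3) and between 5.46 and 17.8 CPM in their native bladders (median 10). It had 172, 228, 314, 124 and 351 CPM in the 5 ileum grafts and 11.1, 13.1, 5.67, 10.4 and 13.6 CPM in the native bladders of those animals. Its difference was -4.29 ± 0.44 (log2, SE, adjusted p = 9.98e-05) with separate groups. CLDN8, a barrier claudin of distal nephron and urothelium, differed by 7.43 ± 1.86 (log2, SE, adjusted p = 0.0288), lost its call without any of 5 animals (adjusted p up to 0.104), and had an adjusted p of 0.0954 by limma-voom.

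Within the 9 scaffold animals the changes went in different directions for lining and muscle genes. The mean change of umbrella cell genes was -0.87, -3.7, 0.78, 3.36 and 2.28 in SIS animals and 0.87, -3.24, -1.65 and -0.85 in PRS animals, against -6.15, -5.57, -6.9, -4.66 and -5.68 in ileum animals. Smooth muscle genes changed by 0.96, 1.76, -1.71, -3.53 and -2.59 in SIS animals and -1.39, 0.64, -1.19 and -0.11 in PRS animals, against -0.4, -1.51, 2.09, -1.59 and -0.34 in ileum animals. In SIS 3, SIS 4, SIS 5 and PRS 1 umbrella cell genes were above native bladder and muscle genes below it. The reverse held in SIS 1, SIS 2 and PRS 2, all coded F, and both lists were below native bladder in PRS 3 and PRS 4, both coded M. The first set holds both codes, F for SIS 3 and PRS 1 and M for SIS 4 and SIS 5. The part of this code, or of the lining and muscle levels, in the results above was not tested. The mean change of absorptive enterocyte genes stayed between -0.07 and 0.51 in the 9 scaffold animals, but single members went further. SLC5A1, of this list, changed by -0.57, -0.16, -0.07, 6.22 and 1.39 in SIS animals and 3.12, 0.0, 7.52 and 1.56 in PRS animals. In ileum animals it changed by 9.27, 7.35, 8.86, 6.94 and 10.09.

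**Figure D5:**
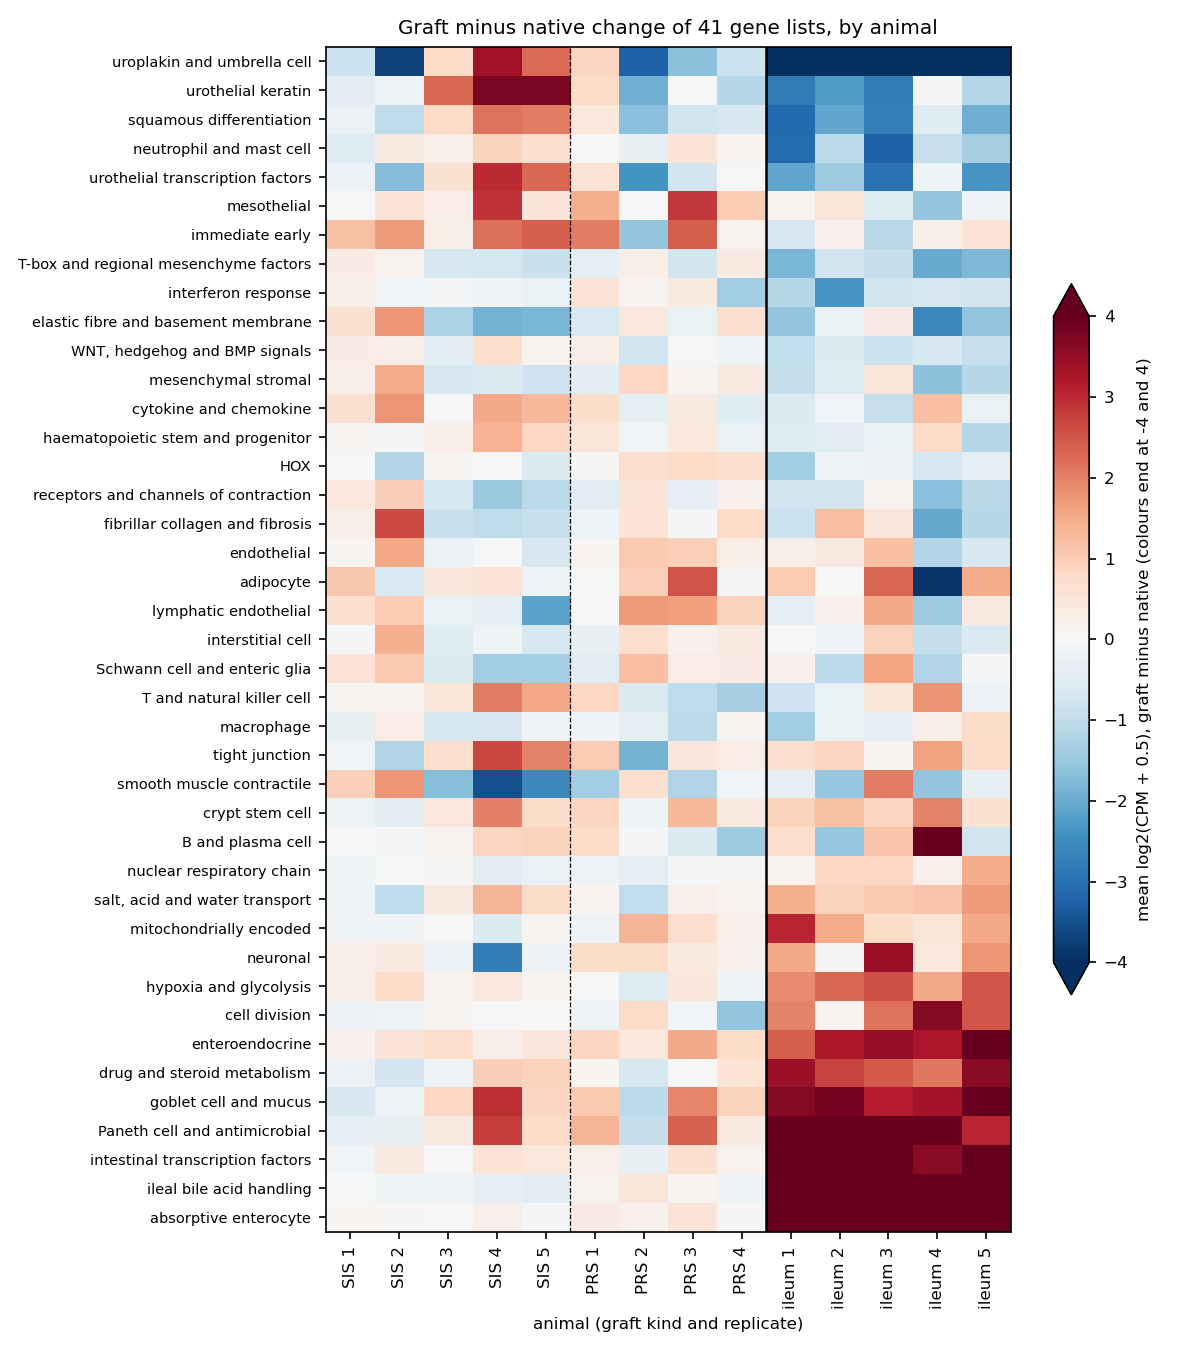
Mean graft minus native change, log2(CPM + 0.5), of the tested members of 41 gene lists (rows) in each animal (columns, scaffold animals left of the solid line, ileum animals right of it). Colours end at -4 and 4. Scaffold animals differ in sign for the uroplakin list, from -3.7 to 3.36, and the 5 ileum animals share theirs, from -6.9 to -4.66.

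PRS and SIS animals could not be separated at this depth of replication. The graft change differed between them for 0 genes by edgeR, with 422 (2.46%) at an unadjusted p under 0.05 and 2 by DESeq2. With SIS animals alone against ileum 675 genes differed, and with PRS animals alone 240. This does not show that the 2 scaffolds acted alike. The 1 gene that passed in scaffold grafts, TCN1, a vitamin B12 binding protein of mucous secretions, changed in the same direction in both graft kinds. Its changes were 0.63, -0.08, 0.15, 5.02 and 0.39 in SIS animals and 0.1, 0.0, 7.0 and 4.44 in PRS animals, against 6.28, 7.77, 4.35, 7.14 and 1.53 in ileum animals. The scaffold change was 6.25 (adjusted p = 0.0262) and its highest single-animal changes were in SIS 4, PRS 3 and PRS 4. All 3 are coded M, as is SIS 5, which stood at 0.39, and the part of this code was not tested. No gene passed in scaffold grafts when any 1 of 10 animals, SIS 4 and PRS 3 among them, was left out. The ileum change was 8.74 (adjusted p = 2.21e-05), and the difference -2.49 ± 1.24 (log2, SE, adjusted p = 0.288).

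FCGBP and CLCA1, goblet cell secretions picked after their values were seen, varied widely among scaffold grafts. FCGBP, a mucus protein, had 6.31, 24.2, 124, 4985 and 54.7 CPM in SIS grafts and 1606, 1.96, 42014 and 27769 CPM in PRS grafts, against 1919, 4690, 588, 815 and 2298 CPM in ileum grafts. The native bladders had 15.7, 34.5, 7.35, 2.37 and 4.95 CPM in SIS animals, 28.1, 10.1, 500 and 11577 CPM in PRS animals and 4244, 4632, 169, 113 and 997 CPM in ileum animals. CLCA1, a secreted protein of the mucus layer, reached 16775 CPM in a scaffold graft. The differences were 1.93 ± 1.88 (log2, SE, adjusted p = 0.625) for FCGBP and -2.03 ± 1.73 (log2, SE, adjusted p = 0.567) for CLCA1. The highest FCGBP levels of the series were in the PRS 3 and PRS 4 grafts and in the native bladder of PRS 4, both coded M, above every ileum graft.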

How the data were processed

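Poly-A selected, directional, paired-end RNA-seq libraries of 28 bladder and graft samples were analysed. The submitters' processing notes name featureCounts 1.5.0-p3, StringTie 1.3.3b and HISAT2 2.0.5. No source used here gives the genome build, the annotation or the strand setting. The authors deposited whole-number counts per gene for 27533 gene rows, 6280 of them without a symbol, and the table held 0 columns of other samples. The columns of PRS animals carry another prefix in the table and were matched through the samples' descriptions.

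Library totals were 20975648 to 35669026 counts. Genes were kept by filterByExpr (minimum count 10), scaled by TMM and fitted in edgeR 4.0.16 (R 4.3.3, limma 3.58.1) with 1 term per animal, 1 graft term for the 9 scaffold animals and 1 for the 5 ileum animals, and tested by the quasi-likelihood F-test with Benjamini-Hochberg adjustment at 0.05. The residual degrees of freedom were 12 and the common biological coefficient of variation 63.2%. A second fit had separate SIS and PRS terms. CPM values were computed from the counts with TMM-scaled totals. The standard error of a log2 value is its size over the square root of F. The tests of mitochondrial share and distance were two-sided exact permutation tests over 2002 allocations of 14 animals. Tested on simulated data on 16845 genes, the comparison of scaffolds against ileum recovered 2%, 34%, 60% and 78% of 2-, 4-, 8- and 16-fold differences, and 4.4% of the genes it called were not simulated as changed. The simulated differences were put into the scaffold grafts, in genes with a mean above 1 CPM and the same base level in every group. These rates therefore do not cover changes in the ileum grafts of genes with few reads in the scaffold arm.

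The animal term comes from the labels, which give each animal's native and graft sample the same code. The correlation of the pair's deviations from their group means ran from -0.195 to 0.612. Alternatives were a fit without the animal term, DESeq2 1.42.0 and its size factors, limma-voom, no filter, a filter at 1 CPM in 5 libraries, mitochondrial genes left out, each scaffold alone, both weighted equally, and each animal left out.

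Genes were named by rule: the 8 largest differences each way with separate groups, up to 6 each way that also passed in scaffold grafts or passed alike in both graft kinds, up to 4 per list by p, and fixed markers. HOXA10, HOXD9, HOXC6, TBX4, PRRX1, MCM2, FBP1, HK1, FABP1, DEFA6, FCGBP, CLCA1, KLF5, ELF3, RAB27B, CYP4B1 and SLC5A1 were named after their values were seen. Some genes that the rule names are not reported here. The comparison, its members and the 41 gene lists were chosen with earlier results of these data known. The labels do not say that samples were processed in batches. Intervals and floors cover counting error only.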

Additional observations from a re-analysis of the deposited data

Results flagged for a closer look

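The comparison itself was flagged because the 2 graft kinds differed under the same contrast: 937 genes, the mitochondrial share of counts (difference -11 percentage points) and the graft to native distance (-0.115). The other flags are single animals far from the rest of their group, in 22 of 260 groups of values examined, where chance flags about 1 in 20.

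In ileum animals, Entero 1 had the highest change of mitochondrial share, at 27.1 percentage points. Entero 4 had the smallest rise of HAPLN4 at 2.42 (log2 of CPM + 0.5, graft minus native), the smallest falls of TP63 at -0.98 and TMPRSS11E at -2.72, and the largest fall of HOXD13 at -7.41. Its native bladder had 71.8 CPM of UPK2, the lowest of the 5, and 32653 CPM of DES, the highest of the 5. Entero 5 had the largest rise of SLC51A at 5.9, and Entero 3 the largest fall of PITX1 at -5.98 and the smallest of HK1 at -0.14.

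In scaffold animals, SIS 2 stood apart for CDX2 at 1.09, SLC9A3 at -2.0, PRRX1 at 3.56 and HK1 at 1.36. SIS 5 stood apart for SLC10A2 at -0.51 and NOS2 at -0.87, and SIS 3 for ABCG8 and REG1A at -0.31 each. PRS 3 stood apart for SLC51A at 3.39, SLC2A2 at -0.96 and ND3 at 0.77, PRS 4 for HKDC1 and MCM2 at -1.59 each, and PRS 2 for PCK1 at 2.04. Several of these genes, SLC10A2, ABCG8 and REG1A among them, have 5 or fewer reads over the scaffold libraries, so 1 library sets the value.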

How the results depend on the processing

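No named gene that passed changed direction under any alternative run. Of those that did not pass, 11 changed sign under some alternative without passing there, among them, with 1 animal left out, KLF5 (-0.55 to 0.4), LGR5 (-1.37 to 0.13), PECAM1 (-0.05 to 0.62) and PROM1 (-0.68 to 0.46). The distance and mitochondrial share stayed past 0.05 in all of theirs. The number of genes whose change differed was 937, and it was 2457 by DESeq2 (1370 higher, 1087 lower; 929 of the 937 among them), 1278 by limma-voom (485 and 793; 843 shared), 240 with PRS animals alone, 675 with SIS animals alone, and 496 to 1117 with 1 animal left out, lowest without Entero 5 and highest without PRS 2. Those leaving out 1 animal gave 0 to 4 genes for scaffold grafts, 1190 to 2740 for ileum grafts and 0 for PRS against SIS, -0.125 to -0.108 for the distance and -12.4 to -7.05 for the mitochondrial share. For scaffold grafts, where 1 gene passed, DESeq2 called 77 and limma-voom 3. For ileum grafts, with 2288, DESeq2 called 4062, and for PRS against SIS it called 2. The cause of these differences was not tested.

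Without the replicate block (the animal term) 1335 genes differed, 816 of the 937 among them, and 0 passed in scaffold grafts. The calls of SLC10A2, FABP6, ABCG8 and HKDC1 were lost without it. In all, 13 named genes lost and 9 gained a call without it, the lost ones including TYMS (adjusted p = 0.117), EMX2 (0.0503), OAS1 (0.0597), MCM2 (0.0537) and FBP1 (0.0621). DESeq2 did not call HAPLN4 (0.181), ABCG8 (0.2) or SLC2A2 (0.0509), limma-voom did not call PRRX1 (0.0576), and without a filter ATP5A1 (0.0674), NDUFV1 (0.0597) and HK1 (0.0651) were not called. The share of higher calls was 51.3%, and 46.8% with DESeq2's size factors and 53.2% with mitochondrial genes left out.

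Of 105 named genes that passed, 40 lost their call when some 1 animal was left out. Depth limits low genes: with 0 reads in the scaffold arm a change is undefined there. The interval of the difference was within 4-fold both ways for 47.6% of genes.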
